A study of Mus musculus with 8 samples.

Results

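Toll-like receptors (TLRs) are the germline-encoded sensors by which myeloid and other cells recognise microbial products. The genes examined were Tlr1, Tlr2, Tlr3, Tlr4, Tlr5, Tlr6 and Tlr9, the LPS co-receptor Cd14 and the adaptor Myd88, chosen by name, with the X-linked Tlr7 and Tlr8 left out because the sex of the mice coincided with genotype. Of these 9 genes 8 had a probe set on the array, 1 each, among 21789 probe sets annotated to exactly 1 gene, and Tlr5, the flagellin receptor, was not analysed here. RNA was taken from sorted tail tumor cells of 4 mice, all of them TAX+ LUC+, of which 2 were IL-15-/- and 2 were IL-15+/+. The 4 groups of 2 arrays each were CD16/32HI IL-15-/-, CD16/32HI IL-15+/+, CD16/32LO IL-15-/- and CD16/32LO IL-15+/+ cells. In every group replicate 1 came from a mouse of 14 months and replicate 2 from a mouse of 12 months, and the mice are called the older and the younger one of their genotype below. In TAX-LUC mice the Tax oncogene of the retrovirus HTLV-1 is driven by the human granzyme B promoter, which is active in cytotoxic lymphocytes, and a viral LTR drives luciferase. The Il15 gene of IL-15-/- mice carries a PGK-Neo cassette in place of several exons. The deletion came from a C57BL/6 strain and the transgenes from mice of mixed C57BL/6 and FVB origin, so linked strain differences cannot be told apart from the deletion. Each tumor gave both a CD16/32HI and a CD16/32LO array, sorted by staining for the Fc gamma receptors CD16 and CD32 after Fc block. The values are log2 signals of 1 array per population and mouse. The genotype test treats the 2 arrays of a mouse as independent. Its p-values measure the spread between the 2 mice of each group, pooled over the 4 groups as if these held different mice. Those of the population and interaction tests measure the spread of the differences within these few mice.

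TLRs bind their ligands through leucine-rich repeats and signal through a cytoplasmic TIR domain. TLR2 pairs with TLR1 or TLR6 at the cell surface to bind bacterial lipopeptides, TLR4 binds lipopolysaccharide (LPS) that CD14 hands over to it, and TLR3 and TLR9 sense double-stranded RNA and unmethylated CpG DNA in endosomes. All of these receptors except TLR3 use MyD88, which recruits IRAK kinases and TRAF6 and leads to NF-κB activation. Neutrophils and macrophages are major TLR-expressing cells.

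The labels were checked first. Il15 itself gave signals of 6.31 and 5.22 in CD16/32HI IL-15-/- cells, against 5.40 and 5.18 in CD16/32HI IL-15+/+ cells, and of 5.45 and 6.54 in CD16/32LO IL-15-/- cells, against 6.42 and 6.88 in CD16/32LO IL-15+/+ cells. The genotypes overlapped, and because this probe set also reads parts of the transcript that the cassette leaves in place, it does not check the genotype labels. Xist, the RNA of the inactive X chromosome, lay at 10.08 to 10.75 on the IL-15-/- arrays and at 3.92 to 4.64 on the IL-15+/+ arrays, so that sex and genotype cannot be told apart. CD16/32HI cells are labelled malignant large granular lymphocytes (LGL), yet the mean of 10 LGL and NK cell markers was 5.11 to 5.99 on the CD16/32HI arrays, where array medians were 5.62 to 5.91. The granzyme transcripts Gzmb and Gzma were at 4.50 to 6.18 and 4.01 to 5.46 there, while Klrd1, the highest of the 10, was at 6.26 to 7.87. On the CD16/32LO arrays the mean of the 10 was 7.17 and 7.09 with IL-15+/+ and 5.22 and 5.35 with IL-15-/-. As a set these markers did not bear out the label, though a level set against an array median is a rough guide. The populations are called here by their gate. In 3 of the 4 mice the mean of 11 macrophage markers was 9.68 to 10.27 in CD16/32HI cells and 8.18 to 8.35 in CD16/32LO cells, and that of 12 neutrophil markers was 7.38 to 7.51 in CD16/32HI and 9.30 to 10.05 in CD16/32LO cells. In the older IL-15-/- mouse these values were the other way about, at 8.11 in CD16/32HI and 10.09 in CD16/32LO cells for macrophage markers and at 9.90 in CD16/32HI and 7.77 in CD16/32LO cells for neutrophil markers. Fcgr2b, which encodes CD32, was at 9.13 on the array of this mouse labelled CD16/32HI and at 10.97 on the array labelled CD16/32LO, against 10.38 to 10.98 in CD16/32HI and 8.87 to 9.31 in CD16/32LO cells of the other mice. Fcgr3, which encodes CD16, did not separate the populations, at 10.86 in CD16/32HI and 11.07 in CD16/32LO cells of this mouse and at 10.59 to 11.37 in CD16/32HI and 10.64 to 11.14 in CD16/32LO cells of the others. In the younger IL-15+/+ mouse it was at 10.59 in CD16/32HI and 10.93 in CD16/32LO cells. The labels were kept as deposited, and the main results are given with and without this mouse. The sample titles do not say which arrays were normalized together. By exactly equal values they fell into 3 sets (the 4 arrays of replicate 1, the IL-15-/- arrays of replicate 2 and the IL-15+/+ arrays of replicate 2). Pairs within a set shared 11 to 106 such values and pairs between sets 0. The sets were built from this sharing and are called normalization sets below. Within replicate 2, and wherever the older IL-15-/- mouse is left out, the IL-15-/- arrays are a set of their own. Genotype differences there cannot be told apart from the set.

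The lipopeptide receptors did not behave as a block. Tlr1 gave signals of 8.55 and 10.61 in CD16/32HI IL-15-/- (older mouse, then younger, here and below), 10.05 and 10.24 in CD16/32HI IL-15+/+, 10.12 and 8.63 in CD16/32LO IL-15-/- and 8.32 and 7.58 in CD16/32LO IL-15+/+ cells. With a range of 3.03 it varied more over the 8 arrays than any other of the genes examined. Its partner Tlr2 was at 8.59 and 9.73 in CD16/32HI IL-15-/-, 9.22 and 9.05 in CD16/32HI IL-15+/+, 9.70 and 8.36 in CD16/32LO IL-15-/- and 8.24 and 8.53 in CD16/32LO IL-15+/+ cells. For both genes the high arrays were those labelled CD16/32HI, except in the older IL-15-/- mouse, where the CD16/32LO array was the high one. Tlr6, which lies next to Tlr1 on chromosome 5 with 0 genes between them, was at 8.51 and 8.35 in CD16/32HI IL-15-/-, 7.35 and 7.25 in CD16/32HI IL-15+/+, 7.66 and 8.55 in CD16/32LO IL-15-/- and 8.06 and 7.65 in CD16/32LO IL-15+/+ cells. Here the CD16/32HI IL-15+/+ arrays were the lowest of the 8, and Tlr6 did not follow Tlr1 across arrays (Pearson r = -0.31, n = 8 arrays of 4 mice, a description). Tlr1 and Tlr6 are closely related in sequence, and cross-hybridisation between their probes was not tested.

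Of the LPS receptor, Tlr4 was at 10.25 and 9.23 in CD16/32HI IL-15-/-, 9.43 and 9.20 in CD16/32HI IL-15+/+, 9.61 and 9.76 in CD16/32LO IL-15-/- and 9.76 and 9.77 in CD16/32LO IL-15+/+ cells. Cd14 was at 10.55 and 8.78 in CD16/32HI IL-15-/-, 8.68 and 8.39 in CD16/32HI IL-15+/+, 9.14 and 9.87 in CD16/32LO IL-15-/- and 9.43 and 9.27 in CD16/32LO IL-15+/+ cells. Both peaked on the array labelled CD16/32HI of the older IL-15-/- mouse, and the arrays labelled CD16/32HI of the other 3 mice were the 3 lowest. The endosomal Tlr3 was at 6.05 and 7.43 in CD16/32HI IL-15-/-, 7.46 and 7.36 in CD16/32HI IL-15+/+, 7.60 and 6.07 in CD16/32LO IL-15-/- and 6.47 and 6.70 in CD16/32LO IL-15+/+ cells. Tlr9 was at 5.89 and 6.65 in CD16/32HI IL-15-/-, 6.54 and 6.92 in CD16/32HI IL-15+/+, 6.55 and 5.53 in CD16/32LO IL-15-/- and 5.94 and 5.48 in CD16/32LO IL-15+/+ cells. Both endosomal receptors were highest on the same 4 arrays as Tlr1, though Tlr9 was dim, with signals around the medians of the tested probe sets (5.76 to 6.04). The adaptor Myd88 was at 9.81 and 9.27 in CD16/32HI IL-15-/-, 8.75 and 8.45 in CD16/32HI IL-15+/+, 8.70 and 10.42 in CD16/32LO IL-15-/- and 9.75 and 9.39 in CD16/32LO IL-15+/+ cells. Its CD16/32HI IL-15+/+ arrays lay below both CD16/32LO IL-15+/+ arrays. Levels of different genes are not compared here, since the signals of different probe sets have no common scale.

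**Figure D1:**
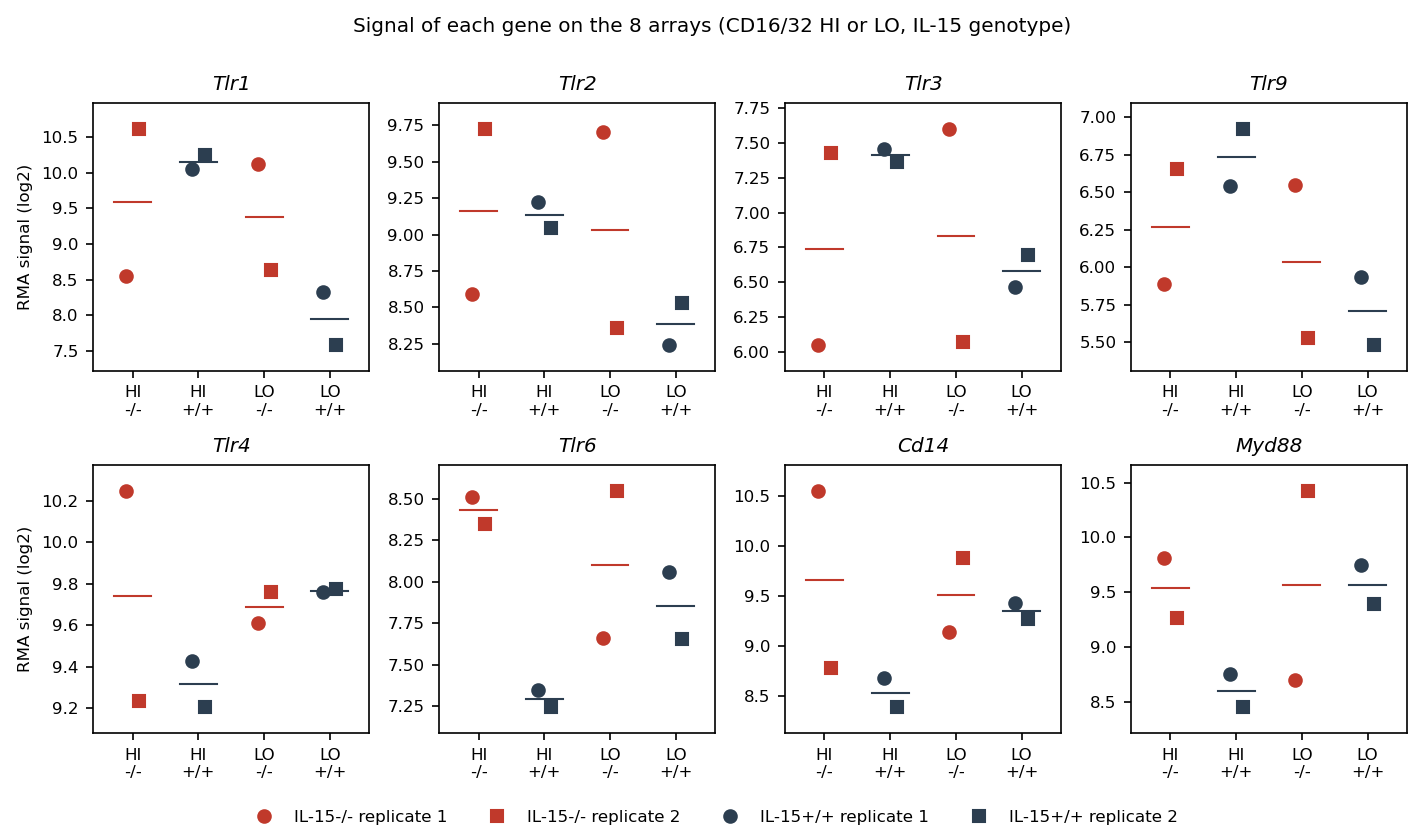
RMA signal (log2, y axis, with its own range in each panel) of 8 genes on the 8 arrays, grouped on the x axis by CD16/32HI or CD16/32LO gate and IL-15 genotype, where circles are older mice (replicate 1), squares are younger mice (replicate 2) and each line is a group's mean. In the IL-15-/- groups the replicates lie far apart for most genes, as for Tlr1 in CD16/32HI cells at 8.55 and 10.61, whereas the CD16/32HI signals of Tlr6 are 8.51 and 8.35 for IL-15-/- and 7.35 and 7.25 for IL-15+/+ mice.

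The populations were compared within each mouse, since both were sorted from the same tumor. For Tlr1 CD16/32HI minus CD16/32LO cells gave 1.98 in the younger IL-15-/- mouse and 1.73 and 2.66 in the IL-15+/+ mice, against -1.56 in the older IL-15-/- mouse. The same comparison gave 1.37, 0.98 and 0.52 against -1.11 for Tlr2, 1.36, 0.99 and 0.67 against -1.55 for Tlr3 and 1.12, 0.61 and 1.44 against -0.66 for Tlr9. These 4 receptors thus stood above 0 in 3 mice and below 0 in the other. Cd14 differed by -1.10 in the younger IL-15-/- mouse and by -0.75 and -0.88 in the IL-15+/+ mice, and by 1.41 in the older IL-15-/- mouse. Myd88 gave -1.16, -1.0 and -0.94 against 1.11, Tlr4 -0.53, -0.34 and -0.57 against 0.64 and Tlr6 -0.20, -0.71 and -0.41 against 0.85. All 8 genes therefore had 1 sign in 3 mice and the opposite sign in the older IL-15-/- mouse, with 4 genes in each direction. Over all probe sets tested 19.6% showed the pattern of Tlr1 and 19.8% that of Cd14, and the macrophage and neutrophil markers above turned in the same mouse. Of 30 other TLR pathway genes 9 showed the pattern of Tlr1 and 9 that of Cd14.

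**Figure D2:**
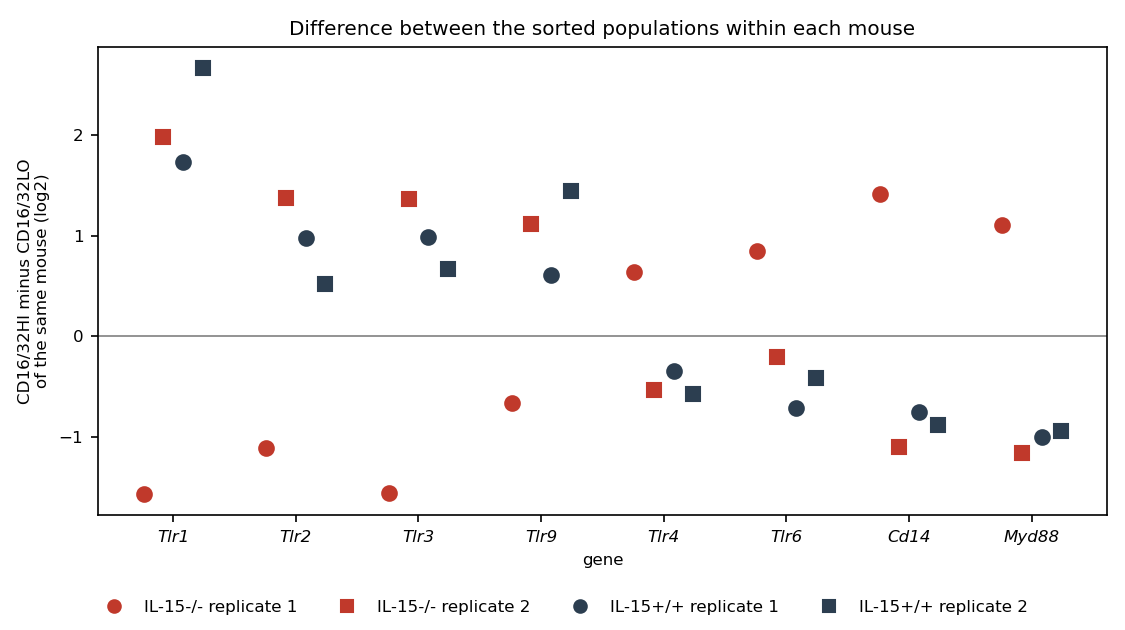
Difference of the log2 RMA signal between CD16/32HI and CD16/32LO cells of the same mouse (y axis) for 8 genes (x axis), with 1 point per mouse, red for IL-15-/- and dark blue for IL-15+/+, circles for older and squares for younger mice. For each gene the 3 other mice lie on 1 side of 0 and the older IL-15-/- mouse on the opposite side, as for Cd14 at 1.41 against -1.10, -0.75 and -0.88.

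With all 4 mice limma called none of the 8 genes between the populations (adjusted p = 0.92 to 0.931), and of the 21789 probe sets it called 0, which is 0%, with 257 at an unadjusted p under 0.05. The log2 differences of CD16/32HI minus CD16/32LO were 1.20 for Tlr1, 0.44 for Tlr2, 0.36 for Tlr3 and 0.63 for Tlr9, and -0.20 for Tlr4, -0.12 for Tlr6, -0.33 for Cd14 and -0.50 for Myd88. Without the older IL-15-/- mouse, 6 of the 8 passed. Leaving this mouse out was decided on earlier results of these data, and the p-values do not account for that choice. In the 3 remaining mice Tlr1 was 4.35-fold higher in CD16/32HI cells (log2 2.12, SE 0.189, adjusted p = 0.000168). Tlr2 was 1.94-fold higher (0.96, SE 0.179, adjusted p = 0.00708), Tlr3 2.01-fold (1.0, SE 0.165, adjusted p = 0.00372) and Tlr9 2.08-fold (1.06, SE 0.178, adjusted p = 0.00412). Myd88 was 2.04-fold lower in CD16/32HI cells (log2 -1.03, SE 0.14, adjusted p = 0.00136) and Cd14 was 1.88-fold lower (-0.91, SE 0.144, adjusted p = 0.00304). Tlr4 (-0.48, adjusted p = 0.0526) and Tlr6 (-0.44, adjusted p = 0.0963) did not pass. The 4 genes called higher and the 2 called lower compare with 1453 probe sets called higher (6.67%) and 1661 called lower (7.62%). The median difference was 0.26 over the 8 genes and 0.03 over all probe sets. In these 3 mice 9 of 11 macrophage markers were called higher in CD16/32HI cells and 11 of 12 neutrophil markers were called lower, with medians of 2.17 and -2.05, and their part in the differences of the TLR genes was not tested. In such bulk samples fewer cells of a type and less RNA per cell cannot be told apart. Tlr2 was not called when the older IL-15+/+ mouse was left out as well (0.94, adjusted p = 0.0528).

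The stretches around the transcription start are shown for 5 of the 6 genes that passed, so that the receptors higher in CD16/32HI cells can be set beside Myd88, which was lower. Each window holds 250 bases before and 50 bases after the start, from RefSeq on GRCm38.p6. Capitals mark matches on either strand to the core of the myeloid Ets factor PU.1, GAGGAA, or to the NF-κB pattern GGGNNNNNCC. Of 9 genes 7 had an entry that could be searched, with 9 windows, and Tlr4 and Cd14 were not searched.
Tlr1 promoter (chr5:64933509-64933808, minus strand): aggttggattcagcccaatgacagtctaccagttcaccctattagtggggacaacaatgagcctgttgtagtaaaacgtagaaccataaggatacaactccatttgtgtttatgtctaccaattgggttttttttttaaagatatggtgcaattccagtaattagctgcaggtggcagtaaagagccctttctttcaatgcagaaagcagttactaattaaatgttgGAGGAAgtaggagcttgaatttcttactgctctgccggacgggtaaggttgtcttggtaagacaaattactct
Tlr9 promoter (chr9:106222348-106222647, plus strand): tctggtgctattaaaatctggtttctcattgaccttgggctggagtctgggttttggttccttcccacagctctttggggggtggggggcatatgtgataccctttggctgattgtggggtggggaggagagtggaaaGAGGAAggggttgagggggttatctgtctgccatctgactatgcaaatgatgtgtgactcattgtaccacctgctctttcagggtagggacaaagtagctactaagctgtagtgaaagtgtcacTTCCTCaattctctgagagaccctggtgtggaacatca
Tlr2 promoter (chr3:83841559-83841858, minus strand): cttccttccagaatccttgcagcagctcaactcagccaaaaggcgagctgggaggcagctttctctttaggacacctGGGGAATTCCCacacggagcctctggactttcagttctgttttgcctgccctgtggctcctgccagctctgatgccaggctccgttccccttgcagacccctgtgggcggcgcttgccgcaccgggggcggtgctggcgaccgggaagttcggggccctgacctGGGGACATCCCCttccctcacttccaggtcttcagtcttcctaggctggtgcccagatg
Tlr3 promoter (chr8:45410331-45410630, minus strand): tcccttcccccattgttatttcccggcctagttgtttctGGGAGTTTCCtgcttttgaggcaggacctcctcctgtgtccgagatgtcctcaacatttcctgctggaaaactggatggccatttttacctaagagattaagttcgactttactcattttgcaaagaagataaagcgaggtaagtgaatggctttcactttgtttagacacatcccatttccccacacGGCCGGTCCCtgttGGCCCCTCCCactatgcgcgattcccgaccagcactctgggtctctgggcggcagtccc
Myd88 promoter (chr9:119339969-119340268, minus strand): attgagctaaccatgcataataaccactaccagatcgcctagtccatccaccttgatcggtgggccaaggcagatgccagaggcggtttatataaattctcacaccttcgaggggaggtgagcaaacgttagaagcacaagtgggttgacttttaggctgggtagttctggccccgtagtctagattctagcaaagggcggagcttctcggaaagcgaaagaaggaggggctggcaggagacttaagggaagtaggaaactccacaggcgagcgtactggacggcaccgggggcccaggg
The printed Tlr1 window held 1 PU.1 match, while the second Tlr1 window in the table, not printed, held neither motif. The Tlr9 window held 2 PU.1 matches, the Tlr2 window 5 overlapping NF-κB matches in 2 places and the Tlr3 window 3, and the Myd88 window held neither. Among 32851 mouse promoter windows of this length 28.3% held the PU.1 letters, 50.8% the NF-κB letters and 13.7% both, so a match is common. No binding was measured in these cells, and the matches are a description of the letters only.

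The other genes of the pathway were called in both directions between the populations. Of 36 listed genes 30 were measured, and in the 3 mice 5 were higher in CD16/32HI cells and 6 were lower, where 6.67% and 7.62% of all probe sets were. The median over the 30 was -0.05. Among 8 accessory proteins and chaperones 3 were higher (6.67% over all probe sets) and 0 lower. Ly86 (MD-1) and Cd180 (RP105), which form a TLR4-like receptor complex, were higher by 2.12 and 1.42 on the log2 scale (adjusted p = 0.000234 and 0.000568), and Ly96 (MD-2), the LPS-binding partner of TLR4, by 1.58 (adjusted p = 0.00127). Ly96 was thus called in the opposite direction to Cd14, another part of LPS recognition. Unc93b1, which carries the endosomal receptors to their compartment, was at 0.65 (adjusted p = 0.0506) and did not pass. Tlr12, a mouse receptor for protozoan profilin, was higher by 1.06 (adjusted p = 0.00904). The adaptors went both ways. Ticam2 (TRAM), which links TLR4 to the interferon branch, was higher by 0.78 (adjusted p = 0.00677), and Tirap (MAL), which brings MyD88 to TLR2 and TLR4, had a log2 difference of -1.17 (adjusted p = 0.00072). Ticam1, the adaptor of TLR3, was at 0.18 (adjusted p = 0.5). Downstream of Myd88 and Ticam1, 3 of 9 kinases and ligases were lower (7.62% over all probe sets) and 0 higher. These were the ubiquitin ligases Peli1 (-0.95, adjusted p = 0.00672) and Traf6 (-0.70, adjusted p = 0.0154) and Tab2, which couples TRAF6 to the kinase TAK1 (-0.49, adjusted p = 0.0444). Irak3 (IRAK-M), which restrains IRAK signaling, had the lowest difference of the 30 at -1.45 (adjusted p = 0.000373), and Rela, the NF-κB subunit p65, was at -0.51 (adjusted p = 0.0375). All 11 were called on the same 3 mice in which the macrophage and neutrophil markers differed.

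**Figure D3:**
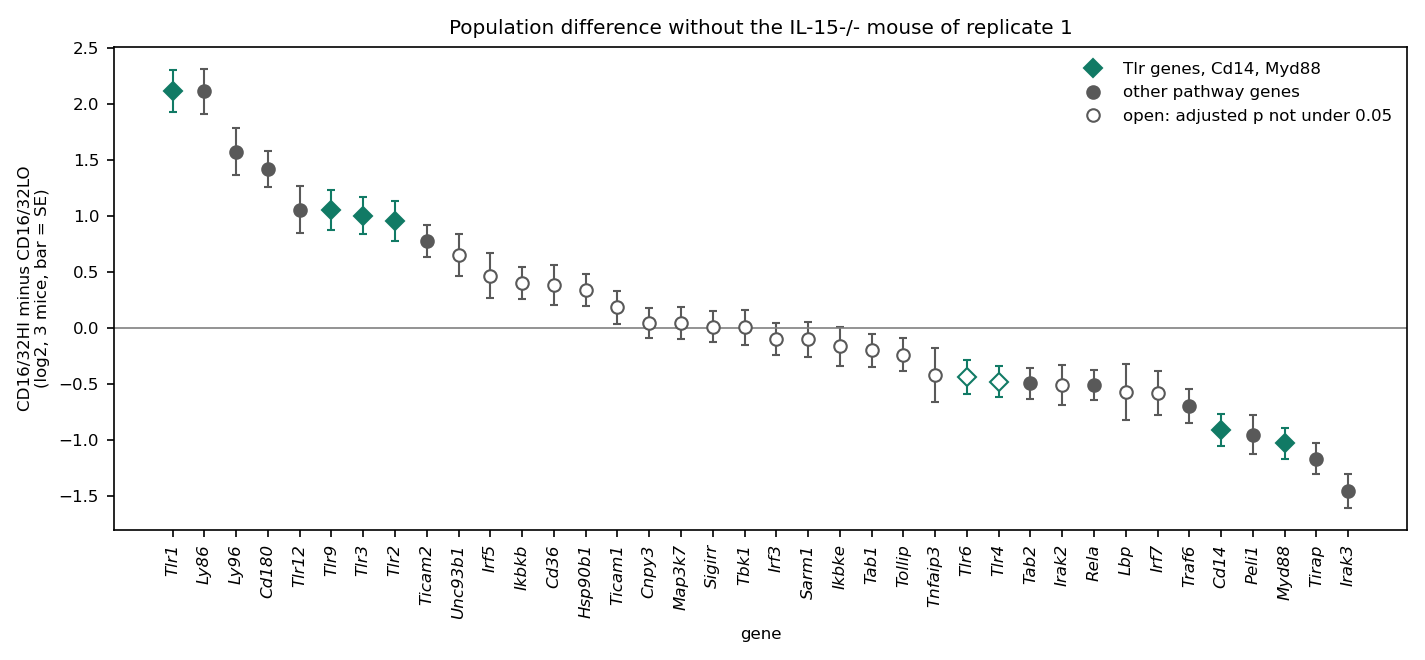
Log2 difference of CD16/32HI minus CD16/32LO cells (y axis, points with SE bars from limma) for the 8 genes (green diamonds) and 30 other TLR pathway genes (grey circles), ordered along the x axis by size, in the 3 mice other than the older IL-15-/- mouse. Filled symbols passed at an adjusted p under 0.05. Tlr1 at 2.12 and Ly86 at 2.12 stand at one end and Tirap at -1.17 and Irak3 at -1.45 at the other.

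The study asked what the loss of IL-15 changes in the tumor, so the genotypes were compared within each population. In CD16/32HI cells none of the 8 genes passed the test (adjusted p = 0.854 to 0.997), where 5 of 21789 probe sets, or 0.0229%, were called and 1070 had an unadjusted p under 0.05. Tlr6 had the most even difference of the 8. Its mean was 8.43 ± 0.116 in CD16/32HI IL-15-/- and 7.30 ± 0.0708 in CD16/32HI IL-15+/+ cells (SD, n = 2 each), a log2 difference of 1.13 (SE 0.314, adjusted p = 0.854) that was 1.17 within replicate 1 and 1.10 within replicate 2. Cd14 averaged 9.66 ± 1.25 with IL-15-/- and 8.53 ± 0.204 with IL-15+/+, also a difference of 1.13 (SE 0.51, adjusted p = 0.854), but it was 1.87 within replicate 1 and 0.39 within replicate 2. Myd88 averaged 9.54 ± 0.383 with IL-15-/- and 8.60 ± 0.212 with IL-15+/+, a difference of 0.93 (SE 0.491, adjusted p = 0.854), with 1.06 and 0.81 within the replicates. In these 3 genes the lower of the IL-15-/- signals still exceeded the higher of the IL-15+/+ signals. That held for 24.1% of all probe sets, while the reverse held for 10.4% of them and for 0 of the 8 genes. The IL-15-/- arrays had the higher medians on average. Only the arrays of the younger IL-15+/+ mouse were low, at 5.62 and 5.65, against 5.86 to 5.93 on all others. Centring each array on its median moved every difference between the genotypes by -0.13 in CD16/32HI and by -0.12 in CD16/32LO cells. After centring the shares in CD16/32HI cells were 15.9% wholly above and 19.6% wholly below, with Tlr6, Cd14 and Myd88 still above and Tlr3 below. After quantile normalization they were 13.5% and 18.3%, with Tlr6 and Myd88 above, Tlr3 below and Cd14 overlapping. Tlr1 differed by -0.56, Tlr3 by -0.67, Tlr9 by -0.46, Tlr4 by 0.42 and Tlr2 by 0.03, each with overlapping genotypes. For Tlr1 the replicates opposed each other, at -1.49 in replicate 1 and 0.37 in replicate 2, as they did for Tlr3 (-1.41 and 0.06) and Tlr2 (-0.63 and 0.68). The replicate 1 value is the one that holds the mouse with the turned markers. In the 4 CD16/32HI arrays the mean of the neutrophil markers was 9.90 and 7.40 for IL-15-/-, against 7.51 and 7.38 for IL-15+/+, and its part in these differences was not tested. Without both arrays of that mouse Tlr6 kept a difference of 1.05, Myd88 one of 0.66 and Cd14 one of 0.25, each resting on 1 IL-15-/- mouse and none past the test. Tlr1 was then at 0.47, Tlr3 at 0.02 and Tlr4 at -0.08, each turned in sign. These differences, like those within replicate 2, compare arrays of different normalization sets and cannot be told apart from the set.

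Along the pathway the genotype differences in CD16/32HI cells were likewise short of the threshold for all 30 genes. The median was 0.23 over the 8 genes and 0.32 over the 30, against 0.09 over all probe sets, and in 14 of the 30 the IL-15-/- signals lay wholly above the IL-15+/+ signals, against 24.1% of all probe sets (13 of the 30 after centring and 11 after quantile normalization, against 15.9% and 13.5%). All 9 kinases and ligases had differences above 0 as deposited, with a median of 0.48, as did 13562 of all 21789 probe sets. After centring 8 of 9 were above 0 and after quantile normalization 6 of 9. The medians over all probe sets were then -0.039 and -0.029. Of the 30 genes Tnfaip3 (A20), the deubiquitinating brake on NF-κB, had the largest difference at 1.27 (SE 0.27, adjusted p = 0.854). Irak3 followed at 1.19 (SE 0.54, adjusted p = 0.854). Irak3 was at 1.79 within replicate 1 and at 0.58 within replicate 2, and without the older IL-15-/- mouse its difference was 0.55, while that of Tnfaip3 was 1.16. Tnfaip3 was at 8.53 and 8.31 for IL-15-/-, against 7.40 and 6.90 for IL-15+/+, so that its genotypes did not overlap. The lowest were Ly86 at -1.27 and Cd180 at -0.87, whose IL-15-/- values were far apart, at 8.33 and 11.30 for Ly86 and at 8.12 and 10.27 for Cd180. Their IL-15+/+ values were 11.29 and 10.86 for Ly86 and 10.47 and 9.65 for Cd180. Without the older IL-15-/- mouse both differences turned, to 0.22 and 0.21, as did 7 of the 30 in all, and none of the 30 passed.

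In CD16/32LO cells none of the 8 genes passed either (adjusted p = 1 for each), with 8 of 21789 probe sets called, or 0.0367%, and 417 at an unadjusted p under 0.05. Tlr1 had the largest difference of the 8, at 1.42 (SE 0.666). Its mean was 9.38 ± 1.05 with IL-15-/- and 7.95 ± 0.52 with IL-15+/+ (SD, n = 2 each), with 1.80 within replicate 1 and 1.05 within replicate 2, and it was the only one of the 8 genes whose IL-15-/- signals lay wholly above those of IL-15+/+, as they did for 24.2% of all probe sets. Tlr4 was the only one whose IL-15-/- signals lay wholly below, as for 4.7%, by a mean of -0.08. After centring, 14.5% of probe sets lay wholly above and 11.8% wholly below, with Tlr1 still above and Tlr4 overlapping. After quantile normalization the shares were 14.2% and 13.5%, with Tlr1 above and Tlr4 again below. The other differences were 0.64 for Tlr2, 0.33 for Tlr9, 0.25 for Tlr3, 0.25 for Tlr6, 0.16 for Cd14 and -0.01 for Myd88. A mean near 0 hid opposed replicates for Myd88, whose genotype difference was -1.05 in replicate 1 and 1.03 in replicate 2. Tlr2 (1.46 and -0.17), Tlr3 (1.13 and -0.63), Tlr6 (-0.40 and 0.89) and Cd14 (-0.29 and 0.61) opposed each other too. Without the older IL-15-/- mouse the difference of Tlr1 was 0.68, and those of Tlr2 (-0.03), Tlr3 (-0.51), Tlr9 (-0.18) and Myd88 (0.85) turned in sign. Here too the difference cannot be told apart from the normalization set. On the CD16/32LO arrays the mean of the macrophage markers was 10.09 and 8.27 for IL-15-/-, against 8.35 and 8.18 for IL-15+/+, and that of the LGL and NK cell markers was 5.22 and 5.35 for IL-15-/-, against 7.17 and 7.09 for IL-15+/+. Their part in these differences was not tested. Of the 30 pathway genes Ly96 (1.45) and Ly86 (0.79) had the highest differences and Peli1 (-0.46) and Irf7 (-0.39), an interferon regulatory factor, the lowest. Ly86 and Peli1 turned without the older IL-15-/- mouse, to -0.48 and 0.20, with differences of 2.20 and -0.63 for Ly86 and of -1.05 and 0.12 for Peli1 within the replicates, while Ly96 was then at 0.95 and Irf7 at -0.24. In 3 of the 30 the IL-15-/- signals lay wholly above those of IL-15+/+ (24.2% of all probe sets) and in 3 wholly below (4.7%). After centring these counts were 3 and 4, and after quantile normalization 2 and 6. As deposited, Tnfaip3 was among those wholly below, with a difference of -0.33. In all, 11 of the 30 changed sign without the older IL-15-/- mouse. None of the 30 passed with or without it, and their median of 0.15 compares with 0.25 over the 8 genes and 0.13 over all probe sets.

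**Figure D4:**
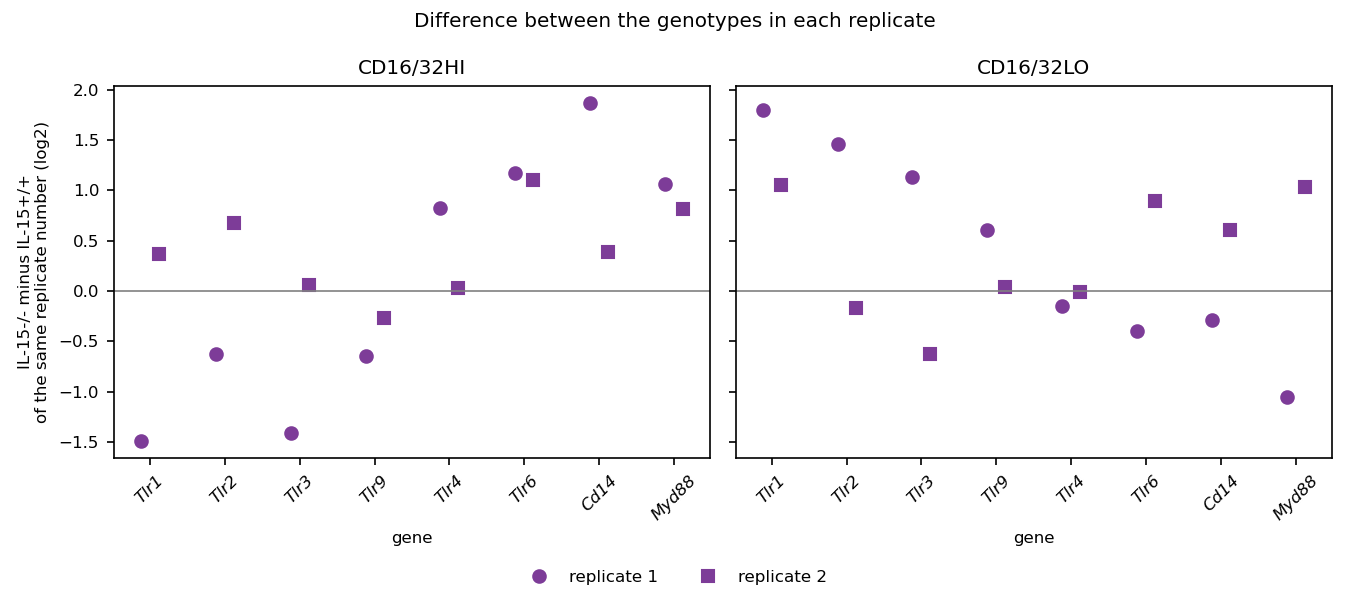
Log2 difference of IL-15-/- minus IL-15+/+ arrays of the same replicate number (y axis) for 8 genes (x axis) in CD16/32HI cells (left) and CD16/32LO cells (right), where circles are replicate 1 and squares replicate 2. In CD16/32HI cells the replicates lie together for Tlr6 (1.17 and 1.10) and Myd88 (1.06 and 0.81), and in CD16/32LO cells those of Myd88 lie apart at -1.05 and 1.03.

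Whether the genotype difference itself differed between the populations was tested within mice. None of the 8 genes was called (adjusted p = 0.878 to 0.892), and over all probe sets 0 (0%) were called, with 578 at an unadjusted p under 0.05 and 0.878 as the smallest adjusted p. With 2 residual degrees of freedom, and with 1 of the 2 IL-15-/- mice opposed to the other, this test says little about any single gene.

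Across the 8 arrays the genes fell along 2 opposite courses, less clearly so for Tlr6. Tlr1 ran with Tlr9 (Pearson r = 0.93), Tlr2 (0.87) and Tlr3 (0.80), and Cd14 with Tlr4 (0.95), Myd88 (0.79) and Tlr6 (0.76), whereas Tlr3 and Myd88 ran opposite (-0.90). Tlr6 was at only -0.31 with Tlr1 and with Tlr2, -0.52 with Tlr9 and -0.69 with Tlr3, and at 0.54 with Tlr4. These are descriptions over 8 arrays of 4 mice that fall into a macrophage-rich and a neutrophil-rich cluster by their markers, so no p is given. Of all tested probe sets those most like Tlr1 were of Cndp2 (r = 0.985), Lrrcc1 (0.984) and Mfhas1 (0.983). For Cd14 they were of R74862 (0.973), Magi3 (0.973) and Micall2 (0.967).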

How the data were processed

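RNA of 8 samples (2 sorted populations from each of 4 mice) was hybridised to Affymetrix whole-transcript gene arrays. The values deposited by the authors are log2 signals of probe sets, which the authors background corrected, normalized and summarized with RMA in Expression Console (versions not given in the sources used here), and by their exactly shared values the arrays fell into 3 sets. Of 35557 probe sets 21789 carried 1 gene symbol in the platform annotation and were tested, 1621 carried several and 12147 none. No filter was applied, and all columns of values were used. The number of arrays limits the precision, and RMA values carry no detection call. Groups were taken from the sample titles.

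IL-15-/- was compared with IL-15+/+ in each population by limma 3.58.1 in R 4.3.3 on all 8 arrays as 4 groups, which share 1 estimate of the spread (4 residual degrees of freedom). That fit had no term for mouse, although deviations of the 2 populations of a mouse correlated at -0.46 with IL-15-/- and 0.36 with IL-15+/+. The populations and the interaction were fitted with mouse as a block. This replaces the 1-way test of the methods, which was run as an alternative. P-values were adjusted by the Benjamini-Hochberg method over all 21789 probe sets and called under 0.05. The scripts were tested on simulated data. The 8 measured genes of the 9 are all described. From 36 other pathway genes, the 2 highest, the 2 lowest and any called are named for the genotype comparisons and the 3-mouse population comparison. For the 4-mouse population comparison and the interaction, which called none of them, no pathway gene is named. Further ones, such as Unc93b1 and Ticam1, were chosen after their values were seen. For genes with a range over 2 on the log2 scale the 3 most similar probe sets are named. The genes, lists and tests were chosen with earlier results of these data known. Alternatives were centring, quantile normalization, probe sets with a mean above 6, all probe sets, blocks for replicate number and normalization set, the 4 arrays of 1 population, the methods' test over 3-fold, and leaving out arrays or mice. Promoters came from RefSeq (GRCm38.p6).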

Additional observations from a re-analysis of the deposited data

How the results depend on the processing

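The deposited values come from 2 mice a genotype, in arrays that fell into 3 sets by their shared values, with 1 mouse whose populations run against their labels. The 552 alternative values mix log2 differences of single genes with counts of calls, and 489 of them were rated the same. For a difference this means the same direction and side of the threshold. For a count it means only a similar size, or 0 in both, so the 489 include counts that stayed at 0. The cause of the other changes was not tested. The genotype test called none of the 8 genes under any alternative run. It called 5 probe sets in CD16/32HI cells, against 3 with a mean above 6, 3 with a replicate block, 0 with a block for the normalization set, 2 with the 4 arrays alone, 10 with the methods' unadjusted test over 3-fold, 0 after its adjustment and 2 to 9 with arrays left out (9 without the older IL-15-/- mouse). In CD16/32LO cells it called 8, against 2 with the normalization set as a block, 17 and 0 with the methods' test, and 3 to 26 with arrays left out (26 without that mouse, 3 without the CD16/32LO array of the older IL-15+/+ mouse). The deviations of same-numbered arrays of the genotypes correlated at 0.06 in CD16/32HI and 0.13 in CD16/32LO cells, so the numbers were not taken to pair the mice, and the replicate block called none of the 8 genes. The number goes with age. It goes with the normalization sets only in part, since the arrays of replicate 2 were split between sets by genotype.

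The population test of 4 mice called 0 probe sets and 0 of the 8 genes, and with a mouse left out 0 to 3114 and 0 to 6, the highest without the older IL-15-/- mouse. The fit of 3 mice called 3114, against 1994 with all probe sets, 1470 with no replicate block (no mouse block), and 1643 to 3203 with a further mouse left out (1643 without the older IL-15+/+ mouse). With all probe sets Tlr2 was not called (adjusted p = 0.0601), and with a mean above 6 Tlr4 was (0.0276). The interaction called 0 probe sets and 0 of the 8 genes, with 0 to 2831 and 0 to 7 when a mouse was left out, the highest without the younger IL-15-/- mouse. With the IL-15-/- replicate numbers crossed, a pairing chosen after seeing the data because deviations of the populations of an IL-15-/- mouse correlated at -0.46, it called 236 and 1.

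Directions turned for Tlr2 in CD16/32HI cells when arrays were centred (-0.11) or quantile normalized (-0.23), and for Tlr4 (0.084) and Tlr6 (-0.059) in CD16/32LO cells with the normalization set as a block. With arrays left out, differences in CD16/32HI cells spanned -1.59 to 0.47 for Tlr1, -0.54 to 0.59 for Tlr2, -1.36 to 0.017 for Tlr3 and -0.084 to 0.93 for Tlr4. In CD16/32LO cells they spanned -0.029 to 1.31 for Tlr2, -0.51 to 1.02 for Tlr3, -0.20 to 0.69 for Tlr6, -0.18 to 0.84 for Tlr9, -0.21 to 0.53 for Cd14 and -0.87 to 0.85 for Myd88, and the 4-mouse population difference of Tlr6 spanned -0.44 to 0.081. Tlr6 (1.05 to 1.22), Cd14 (0.25 to 2.02) and Myd88 (0.66 to 1.21) stayed above 0 in CD16/32HI cells, and Tlr1 (0.68 to 2.17) did in CD16/32LO cells. The mean of several probe sets of a gene was not run, since each gene had 1.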
